A study of Mus musculus with 6 samples.

Results

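The METTL methyltransferase genes and the genes that write, erase and read N6-methyladenosine (m6A) in RNA were followed in 4T1 cells, a mouse mammary carcinoma line, with and without expression of METTL7A1. The set holds every row of the deposited count table whose symbol is Mettl followed by a digit, pseudogene and opposite-strand rows left out, together with a named list of m6A enzymes, cofactors and readers, 45 of the 48587 genes listed. Of these, 30 were Mettl rows and 15 were m6A genes with other names. Membership used no measured value, but the set was proposed with earlier results of these data known. The study asked how METTL7A1, a candidate methyltransferase that the long non-coding RNA EPR induces, acts in mammary gland cells. The METTL7A1 group (3 libraries) came from 4T1 cells stably transfected with full-length Mettl7a1 cDNA in the pBICEP-CMV-2 vector, whose viral CMV promoter drives the transgene, and the mock group (3 libraries) came from 4T1 cells labelled mock, which the methods describe elsewhere as carrying the empty vector. The labels give the same transfection text for both groups, with culture in DMEM/F12 with 10% serum and selection in 350 μg/ml G418, and the sources used here do not say whether the transfectants were clones or pools. The 3 libraries of a group were labelled biological triplicates. Total RNA depleted of ribosomal RNA was sequenced, so a level refers to RNA and not to protein or to methylation.

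Methyltransferases of this family move a methyl group from S-adenosylmethionine to RNA, protein or small molecules. In the nucleus METTL3 and METTL14 form the catalytic core that places m6A on messenger RNA, joined by WTAP, VIRMA, ZC3H13, the RBM15 proteins and CBLL1, while METTL16 acts alone on a small set of structured RNAs. FTO and ALKBH5 remove the mark, and proteins with a YTH domain or of the IGF2BP family bind marked RNA and affect its splicing, decay or translation. Other METTL proteins modify transfer RNA, ribosomal RNA, translation factors or mitochondrial proteins, and the METTL7 branch sits at the endoplasmic reticulum and lipid droplets, where its human members were described as thiol methyltransferases.

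The libraries held 18386780 to 28459338 counts, and the biological coefficient of variation was 0.0915. Abundances are given in cpm, counts per library brought to a common size with TMM factors, and log2 fold changes compare METTL7A1 with mock by the quasi-likelihood test of edgeR, with p values adjusted by the Benjamini-Hochberg method over the 13166 genes with at least 1 cpm in at least 3 libraries. A gene was said to differ at an adjusted p under 0.05. Epithelial markers (Epcam, Krt8, Krt18, Krt14, Cdh1) were all expressed, with a summed level of 1419 to 1683 cpm in METTL7A1 and 1402 to 1714 cpm in mock libraries, but Krt14 alone was at 9.05 to 10.5 cpm in METTL7A1 and 36.8 to 39.1 cpm in mock libraries. Of 4 leukocyte markers (Ptprc, Cd68, Cd3e, Itgam), Cd3e was at 0 and 3 stayed under 1 cpm in all libraries, and their sum was 11.6 to 14.1 cpm against 4.92 to 6.32 cpm, nearly all of it Cd68. The 5 fibroblast markers summed to 23.8 to 26.6 cpm against 17.3 to 19.7 cpm, nearly all of it Pdgfra. The 4 endothelial markers were each under 1 cpm and summed to 0.808 to 0.973 cpm against 0.413 to 0.644 cpm. The part of these shifts in the results below was not tested, and in bulk RNA fewer expressing cells and less RNA per cell cannot be told apart.

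The transfected gene was examined first. Mettl7a1 (chr15:100304817-100314348, mm10, plus strand) was counted 6355, 11358 and 10398 times in METTL7A1 cells and 30, 30 and 29 times in mock cells, in the order of the replicate numbers. The mean abundance was 383 ± 39.6 cpm against 1.35 ± 0.255 cpm (SD, n = 3), every library followed its label, and its log2 fold change was 8.17 (SE 0.14, 95% interval 7.86 to 8.48, adjusted p = 4.89e-11). Mettl7a1 is given apart from the other genes of the set, since its rise checks the labels.

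Whether reads of the transgene could be counted under its relatives depends on how alike the sequences are, so the coding sequences of the Mettl7 branch were compared. All have a coding length of 735 bases in the GENCODE M21 annotation of mm10. Mettl7a2 and Mettl7a3, which lie beside Mettl7a1 on chromosome 15, matched it at 94.7% and 94.3% of their bases, with longest identical runs of 164 and 81 bases, whereas Mettl7b on chromosome 10 matched it at 65.9% with a longest run of 21 bases and shared none of its stretches of 31 bases. The same 120 coding bases of each gene, bases 241 to 360 counted from the start codon, are shown to make this difference visible. In the Mettl7a1 line the capitals mark codon 98, an aspartate codon, the residue that the study altered as a candidate contact for the methyl donor. In the other lines they mark bases that differ from Mettl7a1. The windows lie at chr15:100305087-100305206, plus strand, at chr15:100353450-100353569, plus strand, at chr15:100335170-100335289, plus strand, and at chr10:128960579-128960698, minus strand.
Mettl7a1: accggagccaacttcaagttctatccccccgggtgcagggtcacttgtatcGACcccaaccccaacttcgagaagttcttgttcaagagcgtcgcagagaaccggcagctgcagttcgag
Mettl7a2: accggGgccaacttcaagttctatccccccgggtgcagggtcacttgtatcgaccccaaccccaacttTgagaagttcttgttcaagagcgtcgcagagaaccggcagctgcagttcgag
Mettl7a3: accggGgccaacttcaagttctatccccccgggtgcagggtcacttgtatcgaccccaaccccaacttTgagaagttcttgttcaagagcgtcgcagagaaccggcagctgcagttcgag
Mettl7b: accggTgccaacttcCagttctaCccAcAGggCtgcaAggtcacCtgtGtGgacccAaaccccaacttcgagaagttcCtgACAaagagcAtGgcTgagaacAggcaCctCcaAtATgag
The windows of Mettl7a2 and Mettl7a3 each differed from Mettl7a1 at 2 of the 120 bases and that of Mettl7b at 25. Mettl7a2 had 0 counts in every library, which allows up to 0.102 to 0.164 cpm at 3 counts depending on the library, and Mettl7a3 had 1 count in METTL7A1 replicate 3 and 0 elsewhere. Thus the near-identical neighbours stayed at the floor while Mettl7a1 held 6355 counts or more in METTL7A1 cells, and how reads mapping to several places were treated is not stated in the methods.

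Mettl7b, the more distant relative of the transfected gene, rose more than any other tested gene of the set, Mettl7a1 apart. Its counts were 769, 1455 and 1219 in the METTL7A1 libraries and 133, 170 and 182 in the mock libraries. The corresponding abundances were 41.4, 49.3 and 49.4 cpm against 7.27, 7.01 and 7.33 cpm. Every METTL7A1 library lay far above every mock library, and the 3 mock libraries lay close together. The log2 fold change was 2.70 (SE 0.099, 95% interval 2.48 to 2.92, adjusted p = 1.60e-08), a 6.49-fold difference. It lay between 2.29 and 2.78 in the 6 fits that each left out 1 library and the 9 fits with another setting, and passed the test in all of them. The genes around Mettl7b on chromosome 10 were moderately higher in METTL7A1 cells, with a median log2 fold change of 0.40 over its 40 nearest abundant genes, and the value of 2.29 is the one measured relative to them. Scaled to exon length, the level of Mettl7b went from 5.87 ± 0.135 to 38.1 ± 3.72 cpm per kilobase (SD, n = 3), from rank 25 to rank 3 of the 37 tested genes of the set. On the same scale Mettl7a1 was at 203 ± 21.04 in METTL7A1 cells. Its ratio to Mettl7b was 5.34 ± 0.239 there and 0.122 ± 0.0224 in mock cells. The scale uses the 1883 exon bases annotated for Mettl7a1. The length transcribed from the cDNA is not given, so the scaled level and ratio in METTL7A1 cells hold only for the annotated length.

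**Figure D1:**
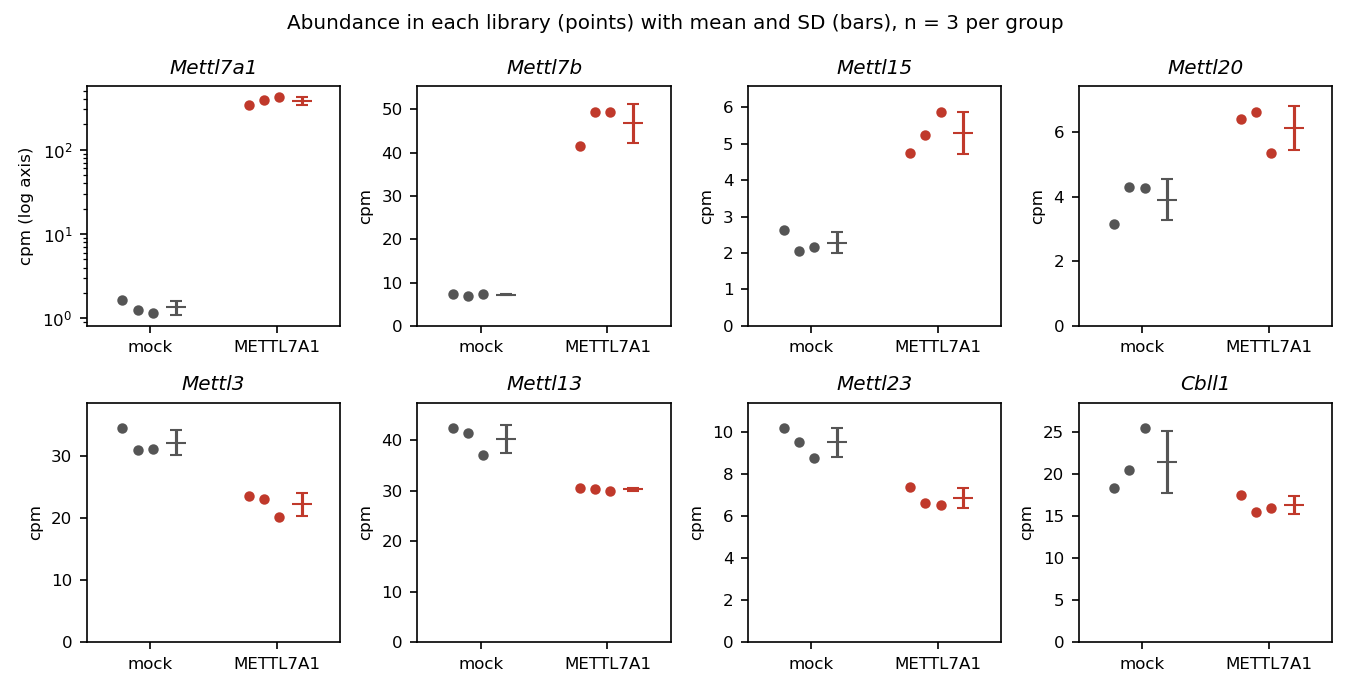
Abundance in cpm (y axis, from 0 except for Mettl7a1, which has a log axis) of 8 genes of the set in the 3 mock (grey) and 3 METTL7A1 (red) libraries. Points are libraries and bars are means with SD. The genes were picked as the largest rises and falls of the set. For each of the 8 genes the groups do not overlap, with Mettl7b at 7.01 to 7.33 cpm in mock and 41.4 to 49.4 cpm in METTL7A1 cells. Groups did not overlap for 18 of the 36 tested genes other than Mettl7a1 and for 51.6% of all genes.

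Most differences in the rest of the set were small, the largest after Mettl7b being a log2 fold change of 1.22 for Mettl15. Of the 44 genes other than Mettl7a1, 36 passed the abundance filter, each with at least 1 cpm in all 6 libraries, and 16 of the 36 (44.4%) differed, against 42.1% of all 13166 genes tested. A rise was found for 7 and a fall for 9, against 21.1% of all genes that rose and 21% that fell. The groups did not overlap for 18 of the 36, against 51.6% of all genes. At the thresholds of the study, an adjusted p under 0.01 and a log2 fold change over 1.5 in either direction, 1 gene remained, Mettl7b, against 2.48% of all genes. The median log2 fold change of the 36 genes was -0.097, beside -0.026 for all genes, and the median size of the change was 0.19, beside 0.25. These shares are close to those of all genes. Writers, erasers and readers accounted for 6 of the calls among 17 tested genes (35.3%), and the other Mettl genes for 10 among 19 (52.6%).

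The 8 genes that were not tested had no library at 1 cpm. Besides Mettl7a2 and Mettl7a3 they were Igf2bp3, an m6A reader of embryonic tissue and tumours with 2 to 9 counts in any library, Mettl21b and Mettl24 with 5 to 13 and 2 to 8 counts, Mettl21c and Mettl21e, both known from muscle, with at most 2 counts, and Mettl11b with 0 counts in all libraries. A difference in these genes was not detectable at this depth.

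**Figure D2:**
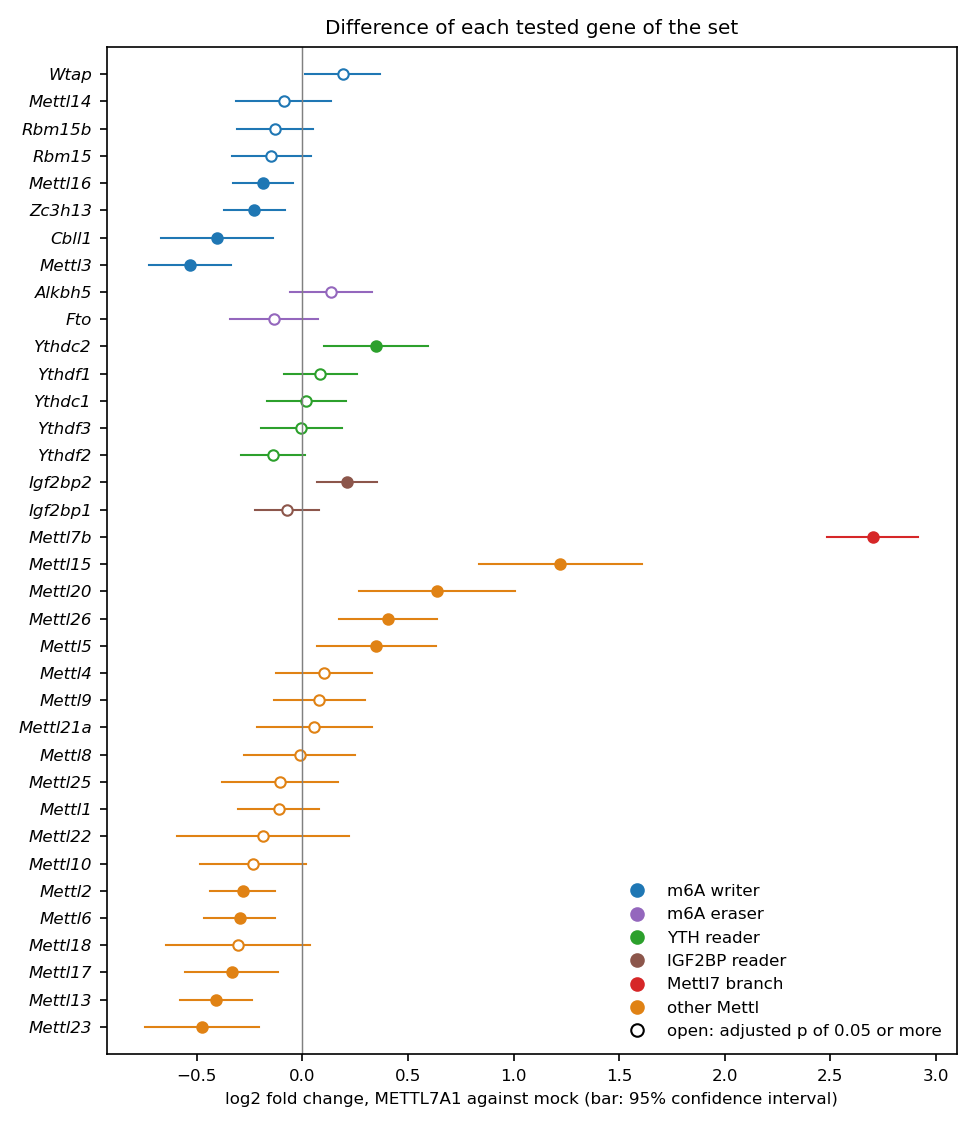
Log2 fold change between METTL7A1 and mock cells (x axis) for the 36 tested genes of the set other than Mettl7a1, grouped by role, with 95% confidence intervals from the edgeR fit on 3 libraries per group. Filled points passed an adjusted p under 0.05 and open points did not. Mettl7b lies at 2.70 and Mettl15 at 1.22, and every m6A gene lies between -0.53 and 0.35.

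Among the 8 writers, 4 (50%) were lower in METTL7A1 cells and none was higher, against 21% of all genes lower and 21.1% higher. The catalytic subunit showed the largest difference. Mettl3 had 23.4, 22.96 and 20.1 cpm in METTL7A1 replicates 1 to 3 and 34.4, 30.8 and 31.03 cpm in mock replicates 1 to 3. All mock libraries lay above all METTL7A1 libraries. The log2 fold change was -0.53 (SE 0.088, 95% interval -0.73 to -0.34, adjusted p = 0.000662), and it passed in every fit that left out 1 library (-0.56 to -0.46). Mettl14, the partner that binds the RNA in the same heterodimer, did not pass. Mettl14 had 35.4, 30.03 and 28.99 cpm in METTL7A1 replicates 1 to 3 and 29.7, 33.1 and 37.03 cpm in mock replicates 1 to 3. The groups overlapped, and the log2 fold change was -0.088 (SE 0.10, 95% interval -0.31 to 0.14, adjusted p = 0.526). The length-scaled ratio of Mettl3 to Mettl14 was 2.57 ± 0.191 in METTL7A1 cells and 3.55 ± 0.596 in mock cells (SD, n = 3). The ranges of 2.41 to 2.78 and 3.05 to 4.21 did not overlap. Both ratios rest on annotated exon lengths of 2025 and 7374 bases, which need not be those of the expressed transcripts. Of the exonic bases of Mettl3, 18.1% lie opposite exons of Tox4 on the other strand, and Tox4 was also lower, with a log2 fold change of -0.28 (adjusted p = 0.00759).

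Cbll1, Zc3h13 and Mettl16 were lower by less. Cbll1 had 17.5, 15.4 and 15.9 cpm in METTL7A1 replicates 1 to 3 and 18.3, 20.4 and 25.4 cpm in mock replicates 1 to 3. Cbll1, a RING-finger protein also called Hakai, was lower in every METTL7A1 library, but its mock libraries were widely spread. The log2 fold change was -0.40 (SE 0.12, 95% interval -0.67 to -0.14, adjusted p = 0.0195), and the call was lost without METTL7A1 replicate 2, METTL7A1 replicate 3 or mock replicate 3 (adjusted p = 0.0533 to 0.0951). Zc3h13 had 74.04, 73.3 and 76.8 cpm in METTL7A1 replicates 1 to 3 and 84.4, 86.4 and 91.5 cpm in mock replicates 1 to 3. Zc3h13, which anchors the complex in the nucleus, had a log2 fold change of -0.23 (SE 0.066, 95% interval -0.37 to -0.083, adjusted p = 0.0164), and the groups did not overlap. Its call was lost without METTL7A1 replicate 2 (adjusted p = 0.0963), and without an abundance filter (adjusted p = 0.123). Mettl16 had 90.6, 86.5 and 87.95 cpm in METTL7A1 replicates 1 to 3 and 96.4, 102 and 103 cpm in mock replicates 1 to 3. Mettl16, an m6A enzyme of its own that methylates U6 small nuclear RNA and hairpins of the Mat2a transcript, had the smallest difference that passed. The groups did not overlap and the log2 fold change was -0.19 (SE 0.065, 95% interval -0.33 to -0.045, adjusted p = 0.0369), but the call was lost without METTL7A1 replicate 2, METTL7A1 replicate 3, mock replicate 1, mock replicate 2 or mock replicate 3 (adjusted p = 0.0593 to 0.152), without an abundance filter (adjusted p = 0.269) and without the 20 most abundant genes (adjusted p = 0.0772).

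The remaining writers did not pass. Wtap, which holds the catalytic pair in nuclear speckles, was the only writer with a positive value. Wtap had 104, 92.9 and 87.8 cpm in METTL7A1 replicates 1 to 3 and 81.9, 78.3 and 88.6 cpm in mock replicates 1 to 3. METTL7A1 replicate 3 lay below mock replicate 3, so the groups overlapped, and the log2 fold change was 0.19 (SE 0.08, 95% interval 0.015 to 0.37, adjusted p = 0.0771). The adjusted p came to 0.0467 without METTL7A1 replicate 3, to 0.0235 without mock replicate 3 and to 0.0476 without the 20 most abundant genes. Rbm15 and Rbm15b, adaptors that bring the complex to RNA, had log2 fold changes of -0.15 (95% interval -0.34 to 0.04, adjusted p = 0.191) and -0.13 (95% interval -0.31 to 0.051, adjusted p = 0.2304). Rbm15 passed without METTL7A1 replicate 1 (adjusted p = 0.0330) and Rbm15b without mock replicate 3 (adjusted p = 0.0320). Virma, the scaffold of the complex and no member of the set by name, is listed as 1110037F02Rik. Virma had 78.2, 74.7 and 74.9 cpm in METTL7A1 replicates 1 to 3 and 109, 113 and 108 cpm in mock replicates 1 to 3. It was lower in every METTL7A1 library, with a log2 fold change of -0.54 (SE 0.064, 95% interval -0.68 to -0.39, adjusted p = 7.50e-05), close to that of Mettl3.

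Neither eraser passed. Alkbh5 had 112, 120 and 138 cpm in METTL7A1 replicates 1 to 3 and 111, 121 and 105 cpm in mock replicates 1 to 3. In mock replicates 1 to 3, Fto had 43.1, 40.5 and 51.8 cpm, and in METTL7A1 replicates 1 to 3 it had 43.2, 39.2 and 41.1 cpm. For both genes the groups overlapped. The log2 fold change of Alkbh5, a nuclear demethylase, was 0.13 (95% interval -0.059 to 0.33, adjusted p = 0.247), and that of Fto, which also demethylates cap-adjacent adenosines, was -0.13 (95% interval -0.34 to 0.073, adjusted p = 0.280). The intervals leave room for a rise of Alkbh5 by up to 0.33 and a fall of Fto by up to 0.34 on the log2 scale. The length-scaled ratio of Alkbh5 to Fto was 6.48 ± 0.815 in METTL7A1 cells and 5.46 ± 1.04 in mock cells (SD, n = 3), with overlapping ranges. It rests on annotated exon lengths of 5730 and 12371 bases.

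Among the readers, Ythdc2 and Igf2bp2 were higher in METTL7A1 cells and 5 others did not pass, beside 21.1% of all genes that rose and 42.1% that differed. Ythdc2 had 33.7, 29.4 and 25.5 cpm in METTL7A1 replicates 1 to 3 and 23.1, 20.8 and 25.5 cpm in mock replicates 1 to 3. Ythdc2 is a helicase with a YTH domain best known from the entry of germ cells into meiosis. METTL7A1 replicate 3 and mock replicate 3 lay almost level, and the others were well apart. The log2 fold change was 0.35 (SE 0.11, 95% interval 0.10 to 0.59, adjusted p = 0.0274), and the call was lost without METTL7A1 replicate 1, METTL7A1 replicate 2, mock replicate 1 or mock replicate 2 (adjusted p = 0.0716 to 0.108). Igf2bp2 had 102, 97.9 and 103 cpm in METTL7A1 replicates 1 to 3 and 83.8, 88.8 and 88.6 cpm in mock replicates 1 to 3. Igf2bp2, which stabilises marked messenger RNA, was higher in every METTL7A1 library with little spread. Its log2 fold change was 0.21 (SE 0.065, 95% interval 0.071 to 0.35, adjusted p = 0.0206), and the call was lost without METTL7A1 replicate 2, METTL7A1 replicate 3 or mock replicate 1 (adjusted p = 0.0598 to 0.0608).

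The 3 cytoplasmic YTHDF readers and the nuclear YTHDC1 did not pass. Ythdf2, which directs marked RNA to decay, was the only one of them whose groups did not overlap, with 83.5 to 86.3 cpm in METTL7A1 and 88.4 to 100 cpm in mock libraries, a log2 fold change of -0.14 (95% interval -0.29 to 0.013) and an adjusted p of 0.1304. Ythdf1, known for promoting translation, had a log2 fold change of 0.086 (95% interval -0.085 to 0.26), Ythdf3 one of -0.0046 (-0.20 to 0.19) and Ythdc1 one of 0.019 (-0.17 to 0.20). Igf2bp1, the relative of Igf2bp2, had a log2 fold change of -0.074 (-0.23 to 0.078).

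Of the Mettl genes outside the m6A pathway, Mettl15 and Mettl20 rose most after Mettl7b. Mettl15, the enzyme that methylates a cytidine of the mitochondrial small ribosomal RNA, was counted 88, 155 and 145 times in the METTL7A1 libraries and 48, 50 and 54 times in the mock libraries. Mettl15 had 4.74, 5.25 and 5.88 cpm in METTL7A1 replicates 1 to 3 and 2.62, 2.06 and 2.17 cpm in mock replicates 1 to 3. The groups were well apart, and the log2 fold change was 1.22 (SE 0.18, 95% interval 0.83 to 1.61, adjusted p = 0.000270). It was the lowest of the tested genes of the set in mock cells, Mettl7a1 apart, when scaled to exon length, at 1.21 ± 0.157 cpm per kilobase (SD, n = 3). Mettl20 had 6.41, 6.64 and 5.35 cpm in METTL7A1 replicates 1 to 3 and 3.17, 4.29 and 4.27 cpm in mock replicates 1 to 3. Mettl20, now named Etfbkmt, methylates the beta subunit of the mitochondrial electron transfer flavoprotein. Every METTL7A1 library exceeded every mock library, and the log2 fold change was 0.64 (SE 0.17, 95% interval 0.27 to 1.01, adjusted p = 0.0102). The call was lost without METTL7A1 replicate 2 (adjusted p = 0.0651).

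Mettl26 and Mettl5 were higher by less. Mettl26 had 27.0, 29.8 and 28.2 cpm in METTL7A1 replicates 1 to 3 and 24.0, 22.4 and 18.1 cpm in mock replicates 1 to 3. The groups of Mettl26 did not overlap, and the log2 fold change was 0.41 (SE 0.11, 95% interval 0.17 to 0.64, adjusted p = 0.00980). Mettl5 had 10.5, 10.5 and 9.57 cpm in METTL7A1 replicates 1 to 3 and 8.69, 8.50 and 6.84 cpm in mock replicates 1 to 3. Mettl5 places a single m6A on the RNA of the small cytosolic ribosomal subunit, with Trmt112 as its partner. The groups did not overlap and the log2 fold change was 0.35 (SE 0.13, 95% interval 0.07 to 0.63, adjusted p = 0.0455). The call of Mettl5 was lost without METTL7A1 replicate 1, METTL7A1 replicate 2, METTL7A1 replicate 3, mock replicate 2 or mock replicate 3 (adjusted p = 0.0544 to 0.1399), and by DESeq2 (adjusted p = 0.0593).

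The 5 Mettl genes that fell outside the m6A pathway were Mettl23, Mettl13, Mettl17, Mettl6 and Mettl2. Mettl13 had 30.6, 30.3 and 29.9 cpm in METTL7A1 replicates 1 to 3 and 42.3, 41.3 and 36.95 cpm in mock replicates 1 to 3. Mettl13, now named Eef1aknmt, methylates elongation factor eEF1A at its N-terminus and at a lysine. The METTL7A1 libraries lay within a narrow range below all mock libraries, and the log2 fold change was -0.41 (SE 0.077, 95% interval -0.58 to -0.24, adjusted p = 0.00148). Mettl23 had 7.38, 6.602 and 6.53 cpm in METTL7A1 replicates 1 to 3 and 10.2, 9.53 and 8.77 cpm in mock replicates 1 to 3. Mettl23, reported as an arginine methyltransferase of histones, was lower in every METTL7A1 library, with a log2 fold change of -0.47 (SE 0.12, 95% interval -0.74 to -0.21, adjusted p = 0.00936). Mettl13 and Mettl23 passed in every fit that left out 1 library.

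Mettl17 had 23.2, 20.1 and 19.4 cpm in METTL7A1 replicates 1 to 3 and 29.2, 24.2 and 25.6 cpm in mock replicates 1 to 3. Mettl17, an assembly factor of the mitochondrial ribosome, had groups that did not overlap, a log2 fold change of -0.33 (SE 0.10, 95% interval -0.56 to -0.11, adjusted p = 0.0198) and a call that was lost without METTL7A1 replicate 2, METTL7A1 replicate 3 or mock replicate 1 (adjusted p = 0.0759 to 0.106). Mettl6 had 22.4, 23.2 and 22.6 cpm in METTL7A1 replicates 1 to 3 and 29.4, 27.4 and 27.05 cpm in mock replicates 1 to 3. In mock replicates 1 to 3, Mettl2 had 35.9, 36.6 and 36.8 cpm, and in METTL7A1 replicates 1 to 3 it had 31.1, 29.1 and 29.7 cpm. Mettl6 and Mettl2 place 3-methylcytidine in transfer RNAs, for serine and for threonine and arginine. In both, all mock libraries exceeded all METTL7A1 libraries. The log2 fold changes were -0.30 (95% interval -0.47 to -0.13, adjusted p = 0.00962) and -0.28 (95% interval -0.44 to -0.13, adjusted p = 0.00782). The call of Mettl2 was lost without METTL7A1 replicate 2 (adjusted p = 0.0531), and without an abundance filter the adjusted p was 0.0528 for Mettl2 and 0.0564 for Mettl6.

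The 9 Mettl genes that did not pass had log2 fold changes from -0.31 to 0.10. They were Mettl1, which places 7-methylguanosine in transfer RNAs (-0.11, 95% interval -0.30 to 0.077), Mettl8, which places 3-methylcytidine in mitochondrial transfer RNAs (-0.013, -0.28 to 0.25), Mettl10, now Eef1akmt2, a lysine methyltransferase of eEF1A (-0.23, -0.49 to 0.019), and Mettl4, reported to act on U2 small nuclear RNA (0.10, -0.12 to 0.33). The histidine methyltransferases Mettl9 and Mettl18 had values of 0.081 (-0.13 to 0.29) and -0.31 (-0.65 to 0.035). Mettl21a, which methylates HSP70 proteins, had 0.056 (-0.21 to 0.33), Mettl22 had -0.19 (-0.59 to 0.22) and Mettl25 had -0.11 (-0.38 to 0.17). Mettl18 and Mettl22 were counted at most 151 and 122 times in a library. The groups of Mettl10 did not overlap, although its adjusted p was 0.127.

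Each gene was then set against its surroundings, since the median change between the groups varied from chromosome to chromosome. The median log2 fold change of abundant genes was -0.42 on chromosome 12 and -0.28 on chromosome 14. It was 0.29 on chromosome 10 and 0.34 on chromosome 18. All 4 tested genes of the set on chromosome 14, namely Mettl3, Zc3h13, Mettl17 and Mettl6, were lower, the single gene on chromosome 12, Cbll1, was lower, and the single gene on chromosome 18, Ythdc2, was higher. Of the 3 tested genes on chromosome 10, only Mettl7b was higher, and Mettl1 (-0.11) and Mettl25 (-0.11) did not pass. Over all chromosomes 21% of the genes tested were lower and 21.1% were higher. The shares on these chromosomes alone are not given here. The median over the 40 nearest abundant genes was -0.34 for Mettl3, -0.33 for Zc3h13, -0.52 for Cbll1 and 0.38 for Ythdc2. All 17 tested m6A genes lay within 0.2 of the median of their own neighbours on the log2 scale, the farthest being Alkbh5 at 0.19. The same held for 48.9% of all 13166 genes and 57.8% of the 7075 genes at least as abundant as the least abundant of the 17. The limit of 0.2 was not among the planned settings and lies just above the largest distance, so that all 17 fall within it by its choice. Abundance of the 7075 was bounded only from below and not otherwise matched. The median distance of the 17 m6A genes was 0.068, beside 0.21 for all genes and 0.17 for the 7075. The other Mettl genes lay farther from their neighbours, 7 of 19 within 0.2, with a median distance of 0.26. Across the 17 m6A genes the Spearman correlation with the neighbour median was 0.895, and across the 19 other Mettl genes 0.425, beside 0.419 over all genes and 0.535 over the 7075. These points share the 6 libraries and, on a chromosome, part of their neighbours, and the difference between the gene groups was not tested.

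Measured relative to the neighbours, with their median as an offset in the fit, none of the 6 calls among the m6A genes held. The median came from the same libraries and was entered as a fixed value. Its own error is therefore not in the adjusted p values given relative to neighbours, here and below. Mettl3 came to -0.19 (adjusted p = 0.129), Mettl16 to -0.083 (0.366) and Igf2bp2 to 0.11 (0.208), and 3 values changed sign, Zc3h13 at 0.10 (0.274), Cbll1 at 0.12 (0.503) and Ythdc2 at -0.035 (0.843). Of the 10 calls among the other Mettl genes, 5 held, for Mettl7b (2.29), Mettl15 (1.05, adjusted p = 0.00105), Mettl20 (0.66, 0.0115), Mettl13 (-0.38, 0.00330) and Mettl23 (-0.45, 0.0166). The other 5 no longer passed, with Mettl26 at 0.26 (adjusted p = 0.0801), Mettl2 at -0.18 (0.0701), Mettl5 at 0.15 (0.4097), Mettl6 at -0.065 (0.565) and Mettl17 at -0.002 (0.992). Mettl1 and Mettl25 on chromosome 10, whose neighbours were higher by 0.57 and 0.34, passed only relative to them, at -0.68 (0.000158) and -0.45 (0.01902). Virma, which is not among the 17, kept its call at -0.31 (0.003795). With the same offset 4147 of all 13166 genes passed, beside 5537 without it. The 4147 include genes that passed only with the offset. The share of the 5537 calls that held is not given here.

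**Figure D3:**
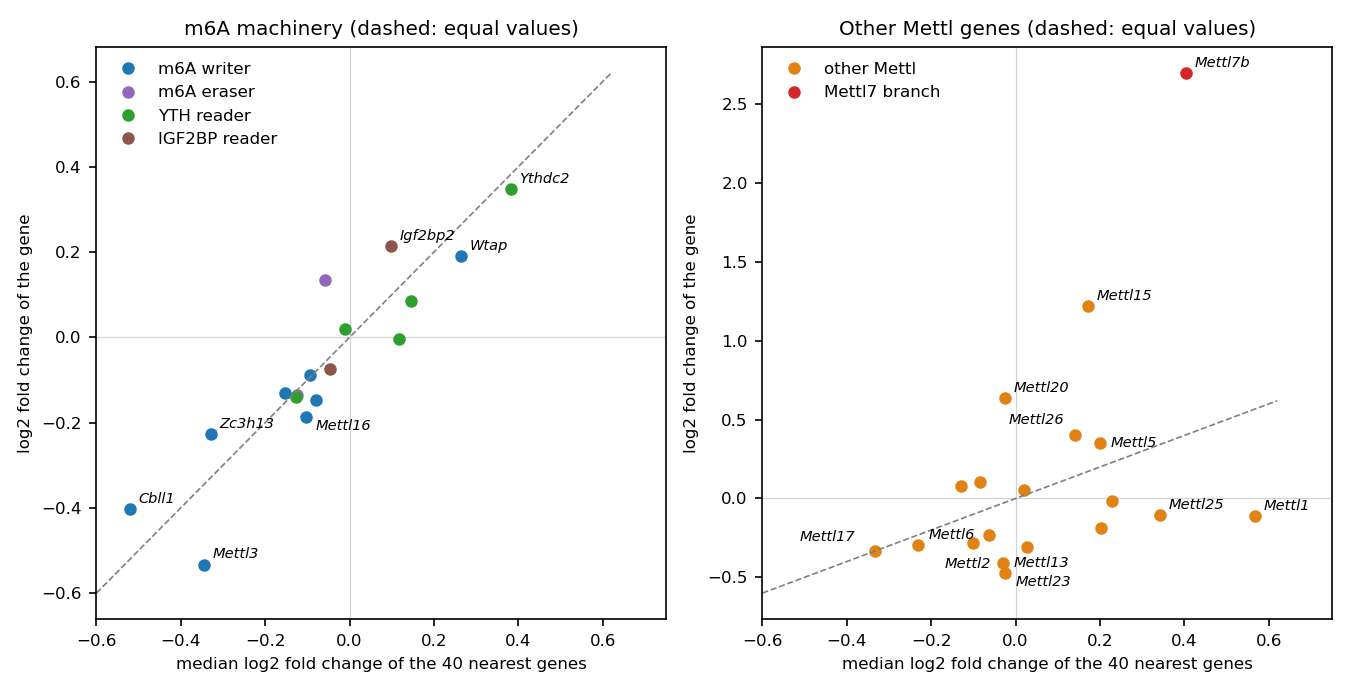
Log2 fold change of each gene (y axis) against the median log2 fold change of its 40 nearest abundant genes on the same chromosome (x axis), for the 17 tested m6A genes (left) and the 19 other tested Mettl genes without Mettl7a1 (right). Every point is 1 gene and the dashed line marks equal values. All m6A genes lie within 0.2 of the line, whereas Mettl7b, Mettl15 and Mettl20 lie above it and Mettl1 below it.

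Genes that work with the METTL enzymes were described from a list of 23 rows, of which all were tested and 8 differed (34.8%), 2 higher and 6 lower, against 42.1% of all genes that differed. Among 5 partners of METTL enzymes only Sars, the cytosolic seryl-tRNA synthetase that binds METTL6, differed. Sars had 146, 166 and 162 cpm in METTL7A1 replicates 1 to 3 and 104, 101 and 90.8 cpm in mock replicates 1 to 3. Its groups were far apart, with a log2 fold change of 0.68 (SE 0.079, 95% interval 0.51 to 0.85, adjusted p = 6.09e-05), opposite in sign to that of Mettl6. The mitochondrial Sars2 had a value of -0.31 (95% interval -0.65 to 0.036), Wdr4, the partner of METTL1, -0.0025 (-0.16 to 0.15), Trmt112, the partner of METTL5, 0.021 (-0.30 to 0.34), and Dalrd3, a partner of METTL2, -0.0053 (-0.24 to 0.23). Relative to its neighbours Wdr4 passed at -0.29 (adjusted p = 0.00856). None of 6 further proteins that bind m6A or m6A-exposed sites (Hnrnpa2b1, Hnrnpc, Rbmx, Fmr1, Prrc2a, Elavl1) passed, with values from -0.21 for Hnrnpc (adjusted p = 0.0571) to 0.17 for Fmr1 (adjusted p = 0.0567). Hnrnpc and Fmr1 passed by DESeq2 and with upper quartile scaling, Prrc2a passed by DESeq2, and Fmr1 and Prrc2a passed with the 20 most abundant genes removed before scaling. Fmr1 also passed without METTL7A1 replicate 1 and without mock replicate 3. Pcif1, which methylates cap-adjacent adenosine, and Zcchc4, an m6A enzyme of ribosomal RNA, had values of -0.034 (-0.23 to 0.16) and -0.022 (-0.28 to 0.24), and Pcif1 passed relative to its neighbours at -0.27 (adjusted p = 0.0425). Of 3 enzymes that formerly carried a METTL name, Vcpkmt (-0.67, adjusted p = 0.000296) and Trmt44 (-0.28, adjusted p = 0.0424) were lower and Ntmt1 (-0.20, adjusted p = 0.1396) did not pass, except without mock replicate 3 (adjusted p = 0.0369). Vcpkmt lies on chromosome 12 and came to -0.16 relative to its neighbours (adjusted p = 0.234), and the call of Trmt44 was lost without METTL7A1 replicate 2, METTL7A1 replicate 3, mock replicate 1 or mock replicate 2 (adjusted p = 0.0578 to 0.184) and in 4 fits with another setting.

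The supply of S-adenosylmethionine, the methyl donor of all these enzymes, was represented by 6 genes, of which 3 were lower and 1 was higher (66.7% in all), against 42.1% of all genes that differed. Mat2a had 372, 315 and 283 cpm in METTL7A1 replicates 1 to 3 and 440, 419 and 414 cpm in mock replicates 1 to 3. Mat2a encodes the enzyme that makes S-adenosylmethionine, and every METTL7A1 library lay below every mock library. The log2 fold change was -0.39 (SE 0.099, 95% interval -0.61 to -0.17, adjusted p = 0.00833). Mtr had 22.7, 21.7 and 21.9 cpm in METTL7A1 replicates 1 to 3 and 30.9, 28.3 and 30.4 cpm in mock replicates 1 to 3. Mtr, methionine synthase, had groups well apart and a log2 fold change of -0.43 (SE 0.077, 95% interval -0.60 to -0.26, adjusted p = 0.00109). Ahcy, which clears the product S-adenosylhomocysteine, had 33.5 to 39.4 cpm in METTL7A1 and 42.9 to 49.4 cpm in mock libraries, a log2 fold change of -0.30 (adjusted p = 0.0169) and a call that was lost without mock replicate 1 (adjusted p = 0.0928). Its relative Ahcyl1 was higher, with a log2 fold change of 0.25 (adjusted p = 0.0117), and its call was lost without METTL7A1 replicate 2 (adjusted p = 0.0576). Mat2b, the regulatory subunit, had a value of -0.089 (95% interval -0.25 to 0.074) and Ahcyl2 one of -0.0091 (-0.17 to 0.15). Mat2a, Mtr, Ahcy and Ahcyl1 also passed relative to their neighbours.

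Mat2a is also the known messenger RNA target of METTL16. METTL16 recognises a motif of 9 bases, TACAGAGAA in DNA letters, within hairpins after the stop codon. A search of the transcripts of GENCODE M21, on the transcript strand only, found it in 4.54% of 21877 protein-coding genes, and Mat2a was the only gene with as many as 5 copies in 1 transcript. These sites are shown with the 10 bases on either side, the motif in capitals, from the minus strand of mm10 at chr6:72434235-72434263, chr6:72433451-72433479, chr6:72433272-72433300, chr6:72433157-72433185 and chr6:72432938-72432966, in transcript order.
Mat2a site 1: tggcgtaggtTACAGAGAAgccttcaagc
Mat2a site 2: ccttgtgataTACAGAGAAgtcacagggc
Mat2a site 3: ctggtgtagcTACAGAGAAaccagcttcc
Mat2a site 4: atggcgtaagTACAGAGAAgccatcacct
Mat2a site 5: gctggtgtggTACAGAGAAgccagcttgt
In the transcripts with all 5 copies, each copy lay after the stop codon. A match of letters does not show that a site is methylated. Mettl16 fell by 12.2% and Mat2a fell by 23.8% of the mock level in METTL7A1 cells. The call of Mettl16 held in only 1 of the 6 fits that left out 1 library, and that of Mat2a in all 6. Relative to its neighbours Mettl16 came to -0.083 (adjusted p = 0.366). A link between the 2 falls was not tested. Counts per gene do not separate the spliced form of Mat2a from the form that keeps its last intron.

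**Figure D4:**
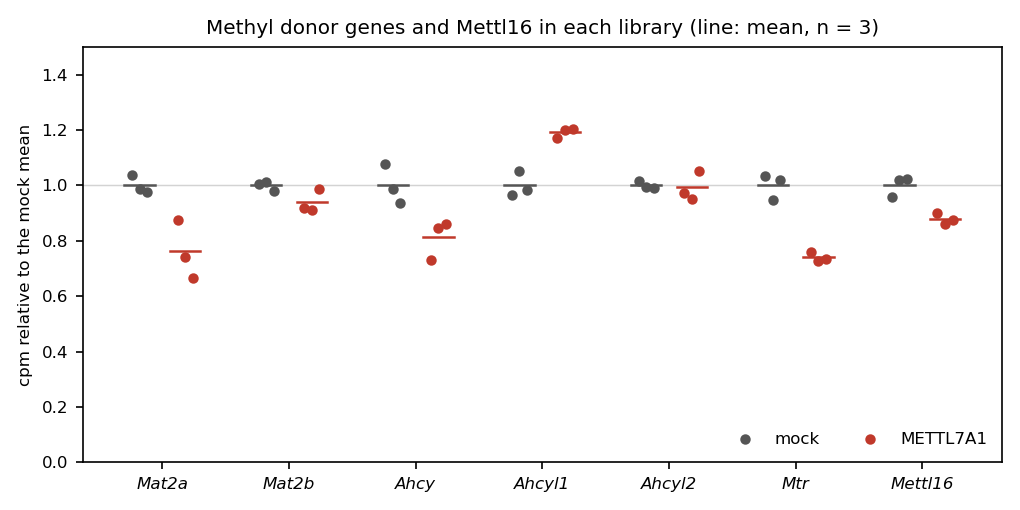
Abundance relative to the mean of the mock libraries (y axis, from 0) for 6 genes of methyl donor supply and Mettl16 in each of the 3 mock (grey) and 3 METTL7A1 (red) libraries. Points are libraries and short lines are means. Mat2a, Ahcy, Mtr and Mettl16 lie below the mock libraries and Ahcyl1 above them, whereas Mat2b and Ahcyl2 overlap.

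Levels of different genes were compared only after scaling to exon length, as cpm per kilobase (mean ± SD, n = 3). The lengths are annotated totals, and those of the expressed transcripts may differ. In mock cells 2 readers stood highest. Ythdc1 was at 43.4 ± 1.71 and Ythdf3 at 36.4 ± 3.91, both apart from each other and from the next gene, Rbm15, at 25.1 ± 1.199. Ythdf2 (22.6 ± 1.45), Igf2bp2 (21.5 ± 0.694), Ythdf1 (20.5 ± 1.55), Mettl26 (20.03 ± 2.86), Alkbh5 (19.6 ± 1.42) and Mettl2 (19.5 ± 0.271) followed with ranges that overlapped from 1 gene to the next. Among the other writers Wtap (16.9 ± 1.06), Mettl3 (15.8 ± 0.987), Zc3h13 (14.2 ± 0.595) and Rbm15b (13.8 ± 1.43) lay close together. Mettl16 was at 7.91 ± 0.281, and Cbll1 (5.34 ± 0.908) and Mettl14 (4.51 ± 0.495) were lower. Fto (3.65 ± 0.478) and Ythdc2 (3.21 ± 0.327) were among the lowest of the m6A genes. The order ran down to Mettl20 (1.64 ± 0.269), Mettl15 (1.21 ± 0.157) and Mettl7a1 (0.716 ± 0.135), so that the highest level exceeded the lowest 60.6 times. Of 36 pairs of neighbours in this order, 27 overlapped between their mock libraries.

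In METTL7A1 cells Mettl7a1 stood first at 203 ± 21.04 by its annotated exon length, followed by Ythdc1 (43.99 ± 4.67), Mettl7b (38.1 ± 3.72) and Ythdf3 (36.3 ± 1.99). Apart from the Mettl7 genes, the largest shift in the order was that of Mettl3, from rank 11 at 15.8 ± 0.987 to rank 18 at 10.9 ± 0.899. Mettl15 stayed near the bottom of the order after its rise, at 2.79 ± 0.301. The spread between libraries of 1 group was small, with a median coefficient of variation of 7.55% in mock and 7.71% in METTL7A1 libraries over the 37 genes.

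**Figure D5:**
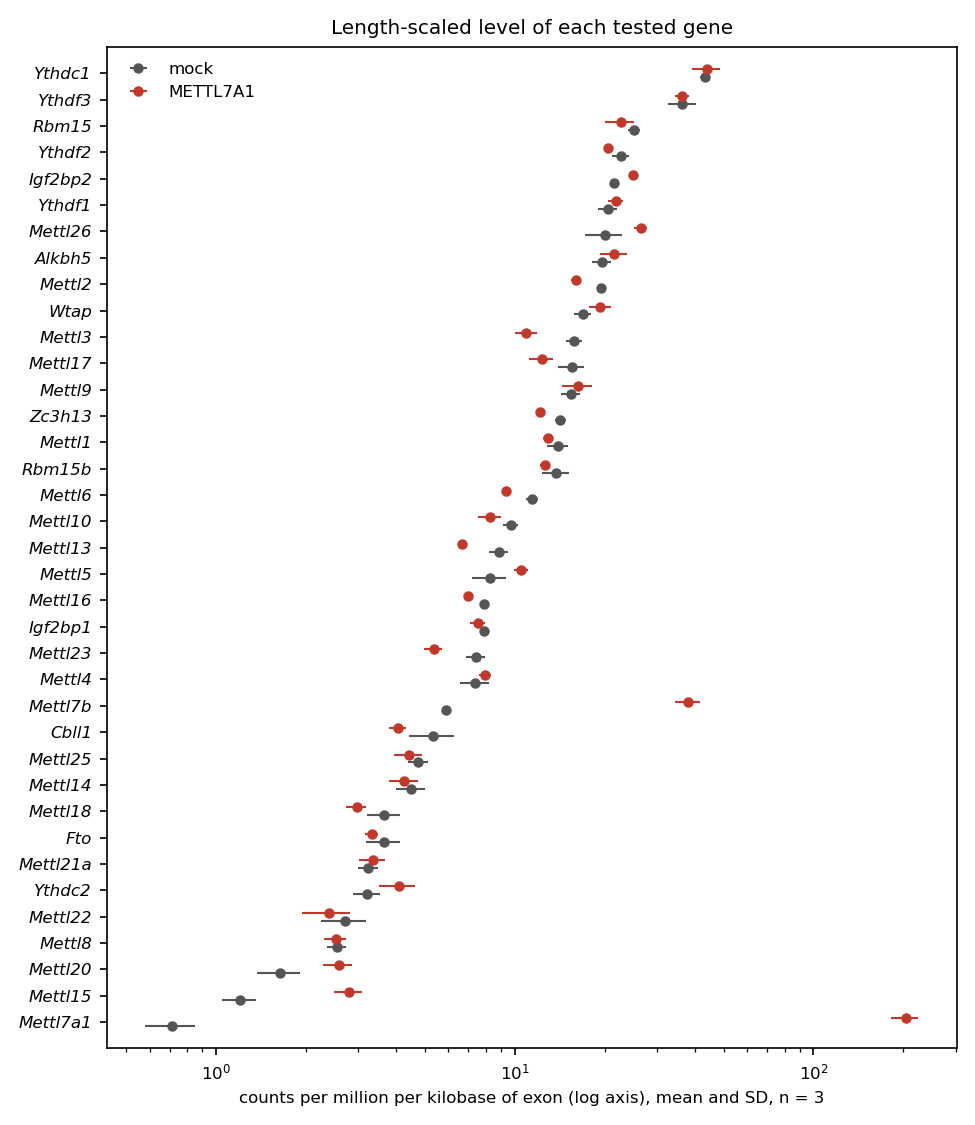
Level of each of the 37 tested genes in cpm per kilobase of exon (x axis, log scale), as mean and SD of the 3 mock (grey) and 3 METTL7A1 (red) libraries, ordered by the mock mean. Mettl7a1 moves from 0.716 to 203 and Mettl7b from 5.87 to 38.1, and the other genes keep nearer to their mock levels.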

How the data were processed

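Total RNA of 3 METTL7A1 and 3 mock libraries was measured, grouped by their titles in the labels. Illumina stranded libraries depleted of ribosomal RNA were sequenced, and the authors trimmed reads with BBDuk, aligned them to mm10 with STAR 2.5.3a, counted them over Ensembl genes with featureCounts. The deposited values are raw counts, not normalized. Exon lengths, coordinates and strands are those of the deposited table, whose length column is an annotation value. Strand and multi-mapping settings are not stated. AY036118 lies inside Gm42418 on the opposite strand and exceeded it in all 6 libraries, which counting without strand would not give.

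Counts were filtered at 1 cpm in at least 3 libraries (13166 of 48587 genes), scaled by TMM and tested with edgeR 4.0.16 (glmQLFit, glmQLFTest, no covariate) in R 4.3.3, adjusted by Benjamini-Hochberg over all genes tested and called at an adjusted p under 0.05. The SE is the size of the log2 fold change divided by the square root of F. Alternatives were other scalings and filters, removal of the 20 most abundant genes, DESeq2 1.42.0, limma 3.58.1 voom, the replicate number as a block, leaving out each library, the thresholds of the study, and an offset for position, the median log2 fold change among the 40 nearest genes on the chromosome with an average log2 cpm over 2. The test was tried on simulated data. Members and lists were chosen with earlier results of these data known, and every member of the set may be named. Sequences were read from GENCODE M21 transcripts. Genes of the related lists were matched through RefSeq synonyms, and no row was found for Cskmt. One marker gene is not reported here.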

Additional observations from a re-analysis of the deposited data

How the results depend on the processing

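Counts covered 18386780 to 28459338 per library, and 3 libraries a group limit the precision to the intervals given above. These intervals measure the spread between the libraries of a group. Independent transfections are not described, so a difference between the transfected cell populations and an effect of METTL7A1 cannot be told apart. All genes gave 5537 calls, 3761 to 5988 under the alternatives at the same threshold and 326 at the thresholds of the study, the log2 fold change of Mettl7a1 was 8.17 and 7.91 to 8.32, and the 6 calls of m6A genes and 10 of other Mettl genes stood at 4 and 8 without an abundance filter. The m6A count was 0 with the chromosome neighbour offset and 0 at the thresholds of the study, and the other Mettl count was 7 and 1. With 1 library left out, the m6A count was 1 to 6 (1 without METTL7A1 replicate 2, 3 without mock replicate 1) and the other Mettl count was 6 to 9 (6 without METTL7A1 replicate 2). Only the offset turned a called direction, for Zc3h13 (0.10), Cbll1 (0.12) and Ythdc2 (-0.035), and values that passed in neither fit changed sign 56 times. Of the 16 calls other than Mettl7a1, 7 held in all 6 fits that left out 1 library and 5 held with the offset. The cause of these changes was not tested.

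No steady pairing by replicate number was seen. Same-numbered libraries deviated from their group means with correlations of -0.15, 0.201 and -0.37, and differently numbered ones with correlations from -0.471 to 0.479. Deviations of 3 libraries from their own mean depend on each other, so these values cannot exclude a pairing. With the replicate number as a block, 4810 of all genes, 4 m6A genes and 9 other Mettl genes passed, without Mettl16 (adjusted p = 0.0894), Igf2bp2 (0.0558) and Mettl5 (0.0567), and Mettl7a1 stayed at 8.17.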

Other observations

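2 rows of the count table that resemble members by name were left out of the set. Mettl5os, on the strand opposite to Mettl5, had 1 to 19 counts in any library, and the pseudogene Mettl4-ps1 had 1 to 3 counts.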
